A study of Mus musculus with 4 samples.

Results

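The mitochondrial genome transcripts were taken as all rows of the deposited gene table with the chromosome label MT, which gave 37 of 54532 genes: 13 mRNAs, 2 rRNAs and 22 tRNAs. The study sequenced RNA of mouse primary fibroblasts, by their titles from lung, in 4 libraries, 2 of genotype Calu-WT (WT) and 2 of genotype Calu-KO. Calumenin, the Calu product, binds calcium in the secretory pathway. Calu-KO libraries are titled KD, and the sources used here state neither the targeting method, nor the age of the mice, nor whether libraries of a group came from separate cultures. P-values therefore reflect only how these libraries spread, which could be technical. Calu stood at 178 and 177 FPKM (fragments scaled to gene length and library size, the unit of the deposited table) in WT and at 14.9 and 10.9 FPKM in Calu-KO. Its title places calumenin in protein homeostasis and the aggregation of vimentin in fibrosis.

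The mitochondrial genome is a small circle that is transcribed from both strands as long precursors, from which the tRNAs are cut out and the mRNAs and rRNAs between them released. Its mRNAs encode core subunits of respiratory complexes I, III, IV and V, its rRNAs build the mitochondrial ribosome and its tRNAs decode the mRNAs. All proteins that copy, transcribe, process and translate this genome come from nuclear genes. In the deposited coordinates 28 of the 37 genes lie on the plus strand and 9, mt-Nd6 and 8 tRNA genes, on the minus strand. The sources state no strand setting for the counting, so reads of a minus-strand gene and of the plus-strand precursor across it cannot be told apart.

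Most mitochondrial mRNAs receive a poly(A) tail, and in some the tail completes the stop codon. In the annotated sequences 10 of the 13 mRNAs ended in a complete stop codon and 3 (mt-Co3, mt-Nd4 and mt-Cytb) in a lone T. The part of tails in the results below was not tested. One end of each kind is shown with the stop bases in capitals (GENCODE M21, mm10, plus strand, MT:6849-6872 and MT:15265-15288).
mt-Co1: ccaacctatgtaaaagtaaaaTAA
mt-Cytb: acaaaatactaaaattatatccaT

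The 3 tRNA genes with at least 20 reads that lay mostly in Calu-KO replicate 1 lie end to end between mt-Nd4 and mt-Nd5. They span 196 bases (MT:11546-11741, mm10, plus strand) and are shown with the anticodon in capitals. They decode histidine, serine and leucine. The isoleucine tRNA mt-Ti (MT:3706-3774, plus strand), the one member that passed the test below, follows them.
mt-Th: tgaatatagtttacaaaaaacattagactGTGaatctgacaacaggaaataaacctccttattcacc
mt-Ts2: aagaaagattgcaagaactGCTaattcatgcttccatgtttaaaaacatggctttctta
mt-Tl2: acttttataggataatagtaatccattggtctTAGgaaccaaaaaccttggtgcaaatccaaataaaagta
mt-Ti: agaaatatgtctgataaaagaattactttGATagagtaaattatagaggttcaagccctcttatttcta

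Multiplying FPKM by gene length recovered whole reads, 15635448 to 16510048 per library. One read was worth 0.0591 to 0.0684 FPKM in a gene of 1 kb and 0.845 to 0.978 FPKM in a tRNA gene of 70 bases. Outside the mitochondrial genome 20451 and 20402 genes had a read in WT, and fewer, 19744 and 18709, in Calu-KO replicates 1 and 2. The 50 genes with the most reads outside the mitochondrial genome took 9.82% and 9.85% of those reads in WT, 10.3% in Calu-KO replicate 1 and 11.5% in replicate 2. The part of these differences in the results below was not tested. Of 5 fibroblast markers Dcn had no read in any library, and the summed level of the 5 was 957 and 963 FPKM in WT and 1029 and 1244 FPKM in Calu-KO. The 6 markers of macrophages and leukocytes summed to 11.1 and 12.2 FPKM in WT and 4.17 and 4.12 FPKM in Calu-KO, with C1qa and Adgre1 at 0 throughout. Endothelial, epithelial and muscle markers summed to at most 1.02 FPKM in any library.

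One Calu-KO library had a larger share of mitochondrial reads than the other 3. The 37 genes took 2.43% of reads in WT replicate 1 and 2.53% in WT replicate 2. They took 2.52% in Calu-KO replicate 1 and 4.002% in Calu-KO replicate 2, where the 95% Wilson interval, which covers counting error only, ran from 3.99% to 4.01%. Calu-KO replicate 1 thus lay between the WT libraries and Calu-KO replicate 2 above all 3. A share of reads cannot tell more mitochondrial RNA from less of the other RNA. In bulk RNA, more mitochondria per cell and more RNA per mitochondrion cannot be told apart either. The mean was 2.48% ± 0.0768 in WT and 3.26% ± 1.05 in Calu-KO (SD, n = 2 each), so the difference of 0.782 percentage points was smaller than the spread within Calu-KO. Without Calu-KO replicate 2 it was 0.0411 percentage points. With 2 libraries on each side, exact permutation reaches no two-sided p under 0.333, so sums over these genes are given without one.

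The 3 classes of RNA did not move alike in Calu-KO replicate 1. The mRNAs took 2.29% and 2.39% of reads in WT, 2.43% in Calu-KO replicate 1 and 3.81% in replicate 2. The rRNAs took 0.126% and 0.134% in WT but 0.0850% in Calu-KO replicate 1 and 0.180% in replicate 2. The tRNAs took 0.00945% and 0.0108% in WT, 0.00747% in Calu-KO replicate 1 and 0.0133% in replicate 2. For every 100 mRNA reads there were 5.52 and 5.62 rRNA reads in WT, 3.499 in Calu-KO replicate 1 and 4.72 in replicate 2. For every 1000 mRNA reads there were 4.13 and 4.51 tRNA reads in WT, 3.08 in Calu-KO replicate 1 and 3.4998 in replicate 2. Both ratios, which do not depend on the scaling between libraries, were lower in each Calu-KO library than in each WT library. In FPKM 29.7% of all tested genes separated downward in this way and 32% upward. The sources do not state how RNA was selected, and the part of selection in these ratios was not tested.

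**Figure D1:**
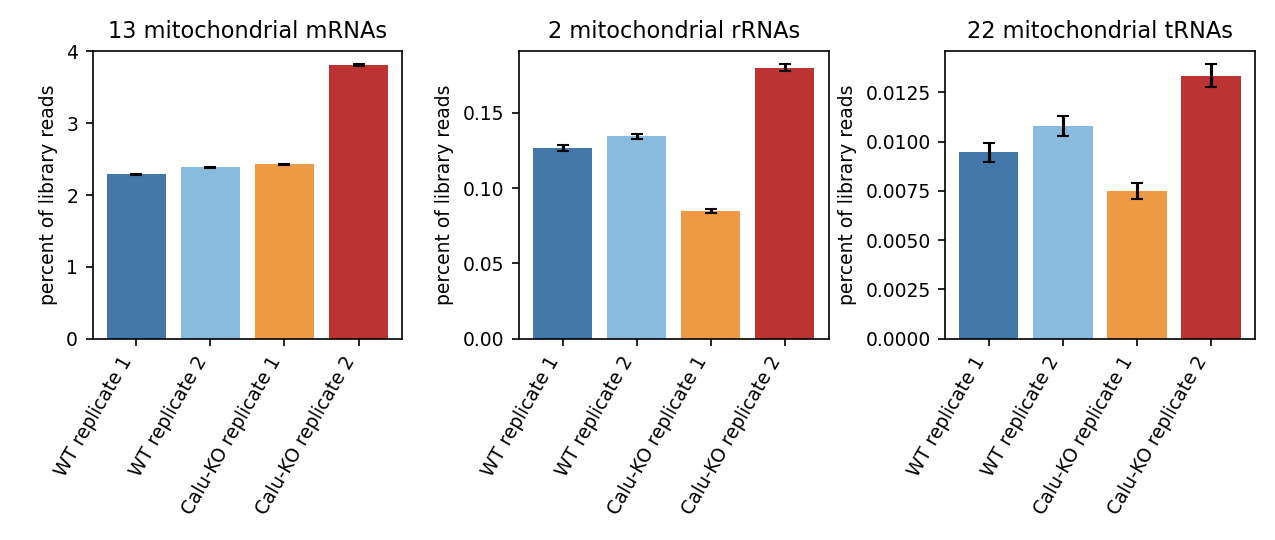
Percent of a library's reads (y axis, from 0 in each panel) in the mitochondrial mRNAs, rRNAs and tRNAs, with 1 bar per library and 95% Wilson intervals for counting error. The rRNA share was lowest in Calu-KO replicate 1, at 0.0850%, and highest in Calu-KO replicate 2, at 0.180%, while the mRNA share stood apart in Calu-KO replicate 2 alone, at 3.81%.

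Across the genome 29 of the 37 genes reached a mean of 1 FPKM and were tested with limma on log2(FPKM + 1), together with all other genes above that level. Of the 8 that were not tested, 6 tRNA genes had no read in any library. The test called 1 of the 29 higher in Calu-KO than in WT and none lower (limma, 2 at an unadjusted p under 0.05), beside 0.942% of all 11885 tested genes higher and 1.83% lower. This was mt-Ti, the tRNA for isoleucine, with 0 and 0 reads in WT, against 4 and 8 reads in Calu-KO (log2 change 2.65 ± 0.35 SE, limma adjusted p = 0.0391). With WT set at 3 reads over both libraries, mt-Ti was 4.19-fold higher in Calu-KO, leaving out counting error in its 12 Calu-KO reads. It entered the test through its Calu-KO reads alone, as did mt-Tm, the tRNA for methionine, with 5 reads in Calu-KO replicate 1, and mt-Tt, the tRNA for threonine, with 4 of its 5 reads in Calu-KO replicate 2. mt-Atp8 entered through WT, since its Calu-KO mean was 0.915 FPKM. With a filter of 20 reads over the 4 libraries mt-Ti was not tested, and the call was lost with no filter and without WT replicate 2 (limma adjusted p = 0.147 and 0.0503). Groups of 2 that did not overlap were seen for 7 of the 29 genes upward (mt-Co1, mt-Co2, mt-Co3, mt-Cytb, mt-Tw, mt-Tl2 and mt-Ti) and for 2 downward (mt-Nd3 and mt-Atp8). Among all tested genes 32% did so upward and 29.7% downward.

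None of the 13 mRNAs passed the test, with log2 changes from -0.88 to 0.60 and limma adjusted p-values from 0.109 to 0.663. Their median log2 change was 0.31, beside 0.01 over all tested genes. In Calu-KO replicate 2, 11 of the 13 were at their highest FPKM of the 4 libraries, a count that depends on the scaling between libraries. By share of reads mt-Co3 and mt-Atp6 were not highest in that library. The share of all tested genes at their highest there was not counted, so this count has no background. In 7 of the 13, Calu-KO replicate 2 was at least 1.5 times Calu-KO replicate 1, beside 7.07% of all tested genes. Of all 29 tested members 19 did so, 2 rRNAs and 10 tRNAs among them, whereas 5 lay 1.5-fold or more the other way, beside 11.3% of all tested genes. Between the WT libraries 5 members differed at least 1.5-fold upward in replicate 2 and 1 downward, all tRNAs, beside 2.44% and 2.75% of tested genes. Against the WT mean, 15 members were at least 1.5 times higher in Calu-KO replicate 2, beside 14.5% of tested genes, and 1, mt-Atp8, lower by that factor, beside 17.2%. In Calu-KO replicate 1, 5 members, all tRNAs, were at least 1.5 times higher, beside 6.79% of tested genes, and 10 lower by that factor, beside 8.71%.

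**Figure D2:**
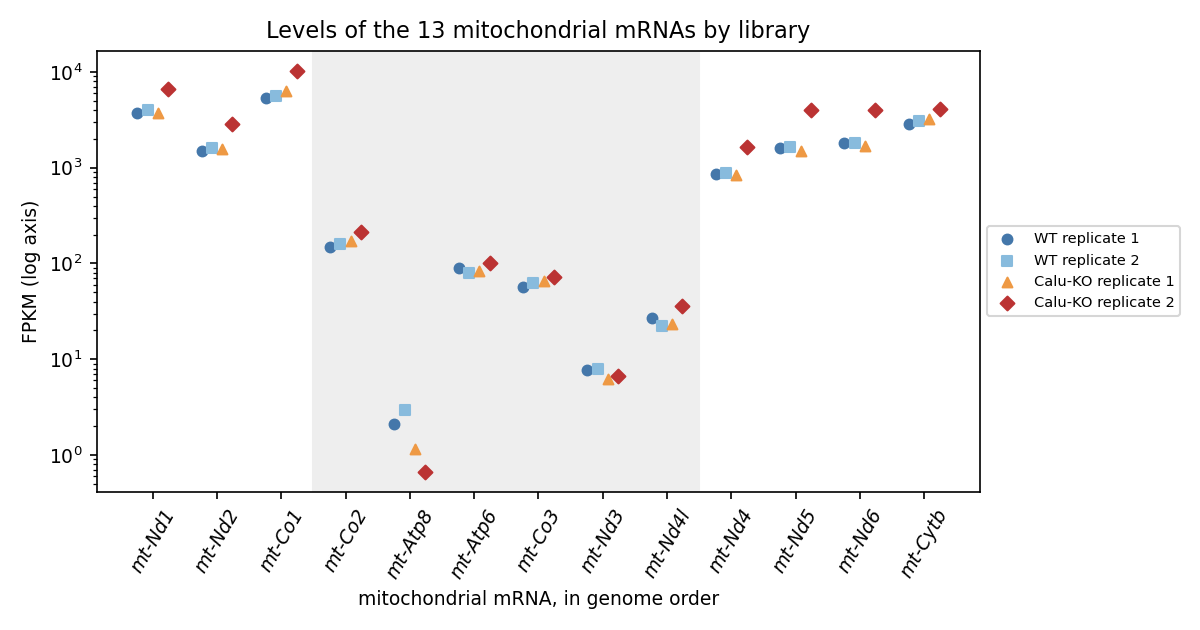
FPKM of the 13 mitochondrial mRNAs in genome order, on a log axis, with 1 point per library; the grey band marks the 6 mRNAs that lie wholly within the stretch mirrored on chromosome 1. The 6 in the band lay between 0.671 and 214 FPKM and the 7 outside it between 840 and 10269 FPKM. Calu-KO replicate 2 was on top for each of the 7, of which mt-Co1 and mt-Nd4 lie partly in the stretch.

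Among the complex IV genes mt-Co1, the catalytic subunit of cytochrome c oxidase, had the highest FPKM of any gene in WT. It stood at 5340 and 5574 FPKM in WT, 6340 in Calu-KO replicate 1 and 10269 in Calu-KO replicate 2. Both Calu-KO libraries lay above both WT libraries, at 1.16 and 1.88 times the WT mean, but the gene was not called (log2 change 0.56 ± 0.27 SE, limma adjusted p = 0.258). The Calu-KO libraries differed from each other by a factor of 1.62, with an exact 95% counting interval of 1.61 to 1.63, against 1.04 between the WT libraries. The share of mt-Co1 in all mitochondrial mRNA reads was 37.7% and 37.3% in WT, 41.3% in Calu-KO replicate 1 and 37.9% in Calu-KO replicate 2. The other 2 oxidase subunits moved less, but both lie wholly in the stretch mirrored on chromosome 1, described below, where values are uncertain. mt-Co2, which holds the copper centre that takes electrons from cytochrome c, stood at 150 and 160 FPKM in WT and 173 and 214 FPKM in Calu-KO. mt-Co3 stood at 56.6 and 63.0 FPKM in WT and 65.7 and 72.1 FPKM in Calu-KO. Neither passed (limma adjusted p = 0.259 and 0.341).

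Among the complex I genes mt-Nd1, mt-Nd2 and mt-Nd4 stood close to WT in Calu-KO replicate 1 and at 1.71 to 1.87 times the WT mean in replicate 2. mt-Nd1, a membrane-arm subunit beside the quinone site, stood at 3718 and 4035 FPKM in WT, 3750 in Calu-KO replicate 1 and 6647 in replicate 2. mt-Nd2 stood at 1490 and 1620 FPKM in WT and at 1549 and 2863 FPKM in Calu-KO replicates 1 and 2. For mt-Nd4 the values were 861 and 883 FPKM in WT and 840 and 1630 FPKM in Calu-KO. All 3 are subunits of the membrane part of complex I. For mt-Nd1 and mt-Nd2 Calu-KO replicate 1 lay between the WT libraries, and for mt-Nd4 just below them.

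The steepest difference between the Calu-KO libraries among mRNAs was that of the neighbours mt-Nd5 and mt-Nd6, both of complex I. mt-Nd5 stood at 1608 and 1629 FPKM in WT, 1500 in Calu-KO replicate 1 and 3993 in Calu-KO replicate 2. Its ratio of Calu-KO replicate 2 to replicate 1 was 2.66 (counting interval 2.63 to 2.69), and 99.4% of tested genes had a lower ratio. mt-Nd6, the one mRNA of the minus strand, stood at 1807 and 1814 FPKM in WT, 1681 in Calu-KO replicate 1 and 3976 in Calu-KO replicate 2, a ratio of 2.37 (2.32 to 2.41). The genes share 14 bases at their ends, and mt-Nd6 stood at 1.12, 1.11, 1.12 and 0.996 times mt-Nd5 in WT replicates 1 and 2 and Calu-KO replicates 1 and 2. Without Calu-KO replicate 2 their log2 changes turned to -0.11 each. Within the pool of mitochondrial mRNA reads mt-Nd5 held 13.4% and 12.9% in WT, 11.5% in Calu-KO replicate 1 and 17.4% in replicate 2.

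The complex III gene mt-Cytb, which encodes cytochrome b, had the smallest ratio between the Calu-KO libraries among the 7 abundant mRNAs. It stood at 2827 and 3106 FPKM in WT and at 3252 and 4136 FPKM in Calu-KO (log2 change 0.31 ± 0.18 SE, limma adjusted p = 0.340). Its ratio of Calu-KO replicate 2 to replicate 1 was 1.27 in FPKM (counting interval 1.26 to 1.29) and 1.13 in percent of reads. Its share of mitochondrial mRNA reads was 14.8% and 15.4% in WT, 15.7% in Calu-KO replicate 1 and 11.3% in Calu-KO replicate 2. The ratio of mt-Nd5 to mt-Cytb in FPKM, free of the scaling between libraries, was accordingly 0.569 and 0.525 in WT, 0.461 in Calu-KO replicate 1 and 0.965 in Calu-KO replicate 2. Over the 7 abundant mRNAs the ratio to the WT mean ran from 0.927 to 1.16 in Calu-KO replicate 1 and from 1.39 to 2.47 in replicate 2, and WT replicate 2 was 1.004 to 1.10 times WT replicate 1.

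**Figure D3:**
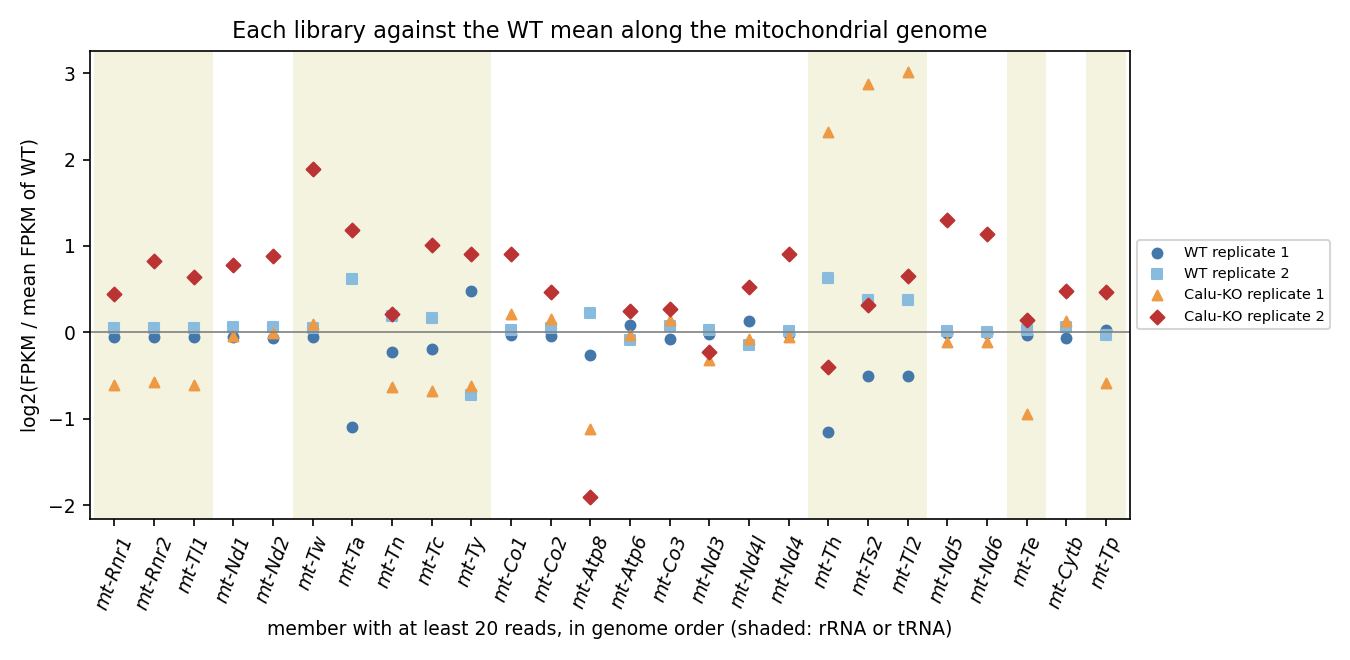
The log2 ratio of each library's FPKM to the WT mean for the 26 genes with at least 20 reads over the 4 libraries, in genome order, with rRNA and tRNA genes shaded; mt-Ta in Calu-KO replicate 1, at 0 reads, has no point. Calu-KO replicate 1 lay near 0 for the abundant mRNAs, below 0 for both rRNAs and most tRNAs, and far above 0 for mt-Th, mt-Ts2 and mt-Tl2, while Calu-KO replicate 2 peaked among mRNAs at mt-Nd5 and mt-Nd6.

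The 6 other mRNAs, all between mt-Co1 and mt-Nd4, were far below the rest, and all but 1 of them have an annotated near-identical copy in the nuclear genome. On chromosome 1 (24611535 to 24616197, mm10) 7 unprocessed pseudogenes mirror the mitochondrial stretch MT:6390-11042, from base 1063 of mt-Co1 to base 876 of mt-Nd4. They matched at 100% over 681 bases of mt-Co2 (Gm28661), 678 of mt-Atp6 (Gm10925), 783 of mt-Co3 (Gm28437), 294 of mt-Nd4l (Gm10222) and 876 of mt-Nd4 (Gm28439), and at 99.8% over 483 bases of mt-Co1 (Gm29216). For mt-Nd3 and Gm28438 the 345 aligned bases differed at 1 base, T3C counted from the first base of mt-Nd3. The first 30 bases of both are shown with that base in capitals (MT:9459-9488 on the plus strand and chr1:24613090-24613119 on the minus strand, mm10).
mt-Nd3: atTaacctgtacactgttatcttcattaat
Gm28438: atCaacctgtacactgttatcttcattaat

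The sources do not state how reads matching both places were assigned, so values in this stretch are uncertain. Of the 5 tRNA genes wholly inside it, 4 had no read and mt-Tr, for arginine, had 3 reads in all. The 6 mRNAs inside it differed between the Calu-KO libraries by factors of 0.579 to 1.52, and the 7 others by 1.27 to 2.66. Of these others, mt-Co1 and mt-Nd4 lie partly inside it. The part of read assignment in this difference was not tested. Reads were also assigned to the copies, though over identical bases a read cannot show which place it came from. Gm28661 was given 1548, 1669, 1588 and 1804 reads in WT 1, WT 2, Calu-KO 1 and Calu-KO 2. In the same order mt-Co2 was given 1681, 1819, 1999 and 2134. With the reads of the copy added, the ratio of Calu-KO replicate 2 to replicate 1 was 1.27 for mt-Co2, against 1.24 without it. For mt-Atp6, the proton-channel subunit of ATP synthase, it was 1.34 against 1.21. It was lower with the copy for the others, at 0.974 against 1.10 for mt-Co3, 1.26 against 1.52 for mt-Nd4l and 0.389 against 1.06 for mt-Nd3.

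Reads assigned to the copy of mt-Nd3 were spread over the libraries otherwise than those assigned to mt-Nd3. With 1 mismatch in 345 aligned bases, most reads cannot show which of them they came from. mt-Nd3, a small subunit of complex I, had 44 and 46 reads in WT, against 37 and 34 in Calu-KO. Gm28438 had 91 and 114 reads in WT, 374 in Calu-KO replicate 1 and 104 in Calu-KO replicate 2, or 16.1, 19.9, 64.1 and 20.6 FPKM in the same order, so that replicate 1 stood apart and replicate 2 lay just above WT replicate 2. Adding the copy turned the log2 change of mt-Nd3 from -0.24 to 0.75. mt-Atp8, an accessory subunit of ATP synthase that shares 43 bases with mt-Atp6, had 7 and 10 reads in WT, against 4 and 2 in Calu-KO, too few to rank the libraries (log2 change -0.88 ± 0.22 SE, limma adjusted p = 0.109). mt-Nd4l had 132 and 111 reads in WT, against 118 and 155 in Calu-KO.

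Both rRNAs were lower than WT in one Calu-KO library and higher in the other. mt-Rnr1, the RNA of the small mitochondrial ribosomal subunit, stood at 594 and 638 FPKM in WT, 404 in Calu-KO replicate 1 and 838 in Calu-KO replicate 2. mt-Rnr2, that of the large subunit, stood at 405 and 434 FPKM in WT, 281 in Calu-KO replicate 1 and 742 in Calu-KO replicate 2. The groups overlapped in both and neither passed (log2 changes -0.08 ± 0.35 and 0.12 ± 0.46 SE, limma adjusted p = 0.900 and 0.882). The Calu-KO libraries differed by a factor of 2.08 (counting interval 2.01 to 2.14) for mt-Rnr1 and 2.64 (2.57 to 2.72) for mt-Rnr2. The level of mt-Rnr2 over mt-Rnr1 was 0.682 and 0.681 in WT and 0.695 in Calu-KO replicate 1, but 0.885 in Calu-KO replicate 2.

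Of the 22 tRNAs 16 had a read and 11 had at least 20 over the 4 libraries. Most reads, 91.3% and 90.8% of tRNA reads in WT, fell in the 8 minus-strand tRNAs. The tRNA for proline, mt-Tp, had 444 and 431 reads in WT, 298 in Calu-KO replicate 1 and 537 in Calu-KO replicate 2. mt-Tc, for cysteine, had 311 and 404 reads in WT, against 229 and 638 in Calu-KO. mt-Tn, for asparagine, had 385 and 521 reads in WT, against 298 and 464 in Calu-KO. In FPKM all 3 were lowest in Calu-KO replicate 1 and highest in replicate 2, as the rRNAs were. For mt-Tn, at 447 FPKM in Calu-KO replicate 2 and 442 in WT replicate 2, the top place rests on the scaling between libraries. As a share of reads mt-Tn was highest in WT replicate 2. It had 521 of 16033535 reads there, against 464 of 16038560 in Calu-KO replicate 2. mt-Te, for glutamic acid, had 180 and 191 reads in WT, against 99 and 181 in Calu-KO.

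Taking the 13 rRNAs and tRNAs with at least 20 reads, 8 lay below both WT libraries in Calu-KO replicate 1. Among all 29 tested members 13 did so, beside 41.6% of all tested genes, a share near the background. Of the 8, mt-Ta, for alanine, had 0 reads there against 3 and 10 in WT, and the other 7 stood at 0.521 to 0.669 of the WT mean. Those 7 were both rRNAs and mt-Tl1, mt-Tn, mt-Tc, mt-Te and mt-Tp. When Calu-KO replicate 1 alone was set against WT, 5 of the 29 tested genes were called lower, namely mt-Rnr1, mt-Rnr2, mt-Tp, mt-Te and mt-Tl1, beside 9.51% of all tested genes. That fit takes its spread from the WT libraries alone and assumes that the lone library varies as they do. No mRNA was called in either direction in it.

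With the same limits Calu-KO replicate 2 alone gave 17 of 29 genes higher, beside 24.6% of all tested genes, and mt-Atp8 lower, beside 23.6%. Both rRNAs and 9 mRNAs were among the 17. mt-Ti and mt-Tt, also among them, entered the test through Calu-KO and mt-Atp8 through WT, and of the 25 members above 1 FPKM in both groups 15 were called higher and 0 lower (limma). The log2 changes of the abundant mRNAs ran from 0.48 ± 0.08 SE for mt-Cytb to 1.30 ± 0.06 for mt-Nd5 (limma adjusted p = 0.0132 and 0.00255). mt-Tw, the tRNA for tryptophan that adjoins mt-Nd2, had 35 and 38 reads in WT, 40 in Calu-KO replicate 1 and 120 in Calu-KO replicate 2. Its log2 change in that fit was 1.86 ± 0.06 SE (limma adjusted p = 0.00255), and with both Calu-KO libraries 0.98 ± 0.57 (limma adjusted p = 0.332).

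The contiguous tRNAs for histidine, serine and leucine shown above had most of their reads in Calu-KO replicate 1, as did mt-Tm and mt-Tr at 5 and 3 reads over all libraries. mt-Th had 2 and 7 reads in WT, 23 in Calu-KO replicate 1 and 3 in Calu-KO replicate 2. mt-Ts2 had 7 and 13 reads in WT, 75 in Calu-KO replicate 1 and 11 in Calu-KO replicate 2. mt-Tl2 had 8 and 15 reads in WT, 95 in Calu-KO replicate 1 and 16 in Calu-KO replicate 2. For each of the 3, Calu-KO replicate 1 stood above the other libraries, at 5.01, 7.33 and 8.08 times the WT mean, and replicate 2 stood at 0.755, 1.24 and 1.57 times.

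Together the 3 took 1.15% and 2.03% of tRNA reads in WT, 15.6% in Calu-KO replicate 1 and 1.40% in Calu-KO replicate 2. With both Calu-KO libraries none passed (log2 changes 1.04 ± 0.88, 1.58 ± 0.82 and 1.80 ± 0.77 SE, limma adjusted p = 0.485, 0.292 and 0.228). In the fit of Calu-KO replicate 1 alone mt-Ts2 and mt-Tl2 were called higher (limma adjusted p = 0.0208 and 0.0196), as were mt-Ti and mt-Tm, 4 in all beside 7.76% of all tested genes. Since mt-Ti and mt-Tm had no WT read and entered through Calu-KO alone, 2 of the 4 calls are from members above 1 FPKM in both groups. The flanking mt-Nd4 and mt-Nd5 had Calu-KO replicate 1 at 0.963 and 0.927 of the WT mean. Since the 3 genes are adjacent, 1 fragment may touch more than 1 of them, and they are not independent.

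**Figure D4:**
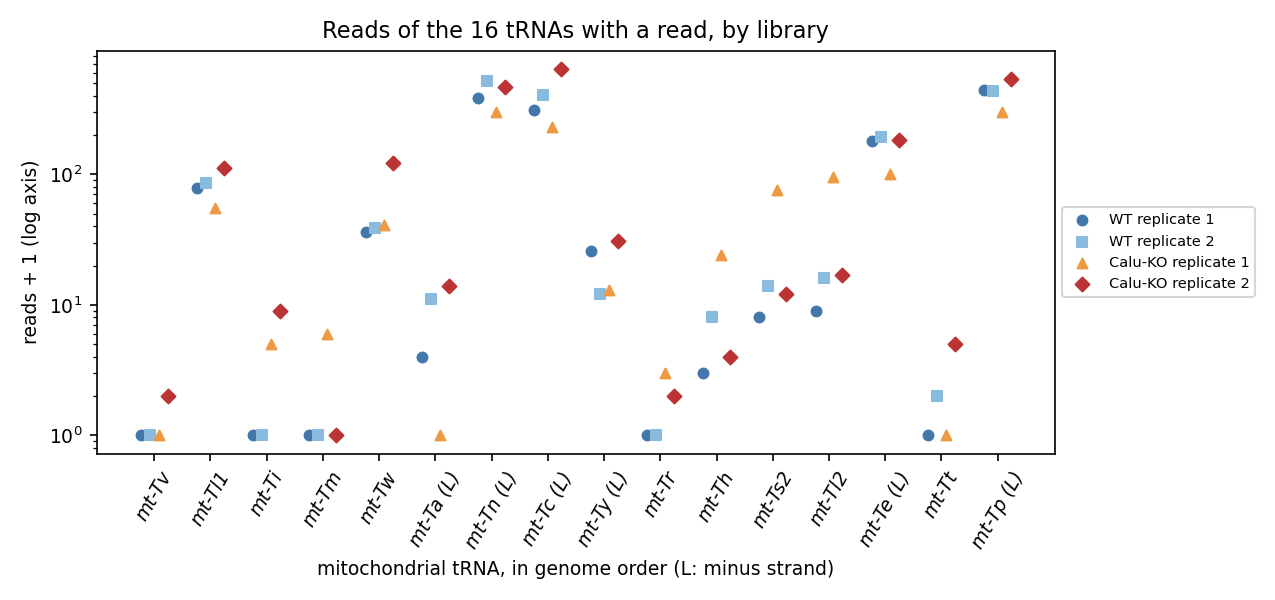
Reads plus 1, on a log axis, of the 16 tRNA genes with a read, in genome order, with 1 point per library and L marking the minus strand. Calu-KO replicate 1 is lowest for mt-Tl1, mt-Tn, mt-Tc, mt-Te and mt-Tp and highest for mt-Th, mt-Ts2 and mt-Tl2, where it holds 23, 75 and 95 reads.

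Nuclear genes that act on the mitochondrial genome were described from lists chosen with earlier results of these data known. Of 19 tested genes of mitochondrial DNA maintenance and transcription none passed (limma; median log2 change -0.06, beside 0.01 over all tested genes). Tfam, which packages the genome and starts transcription, stood at 13.1 and 13.7 FPKM in WT and 13.5 and 12.2 FPKM in Calu-KO. Polrmt, the mitochondrial RNA polymerase, stood at 8.47 and 8.78 FPKM in WT and 6.60 and 7.54 FPKM in Calu-KO (limma adjusted p = 0.256). Of 26 tested genes of mitochondrial RNA processing and stability none passed either, with a median log2 change of 0.01. Lrpprc, which stabilises mitochondrial mRNAs, stood at 25.4 and 26.5 FPKM in WT, 20.4 in Calu-KO replicate 1 and 28.5 in Calu-KO replicate 2. For Tfam and Lrpprc the groups overlapped, and for Polrmt both Calu-KO libraries were lower.

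One regulator changed in both Calu-KO libraries alike. Ppargc1a, the coactivator PGC-1alpha that drives mitochondrial biogenesis, had 332 and 294 reads in WT, against 27 in each Calu-KO library. Its level fell from 2.88 ± 0.277 to 0.261 ± 0.0269 FPKM (SD, n = 2 each), 0.0907 of the WT mean (log2 change -1.62 ± 0.17 SE, limma adjusted p = 0.0266). It passed the filter of 1 FPKM through its WT level alone. It was the 1 gene called among 7 tested biogenesis regulators, whose median log2 change was -0.09, beside 1.83% of all tested genes lower. Leaving out WT replicate 1 or 2 ended the call (limma adjusted p = 0.0931 and 0.0746), with log2 changes of -1.55 and -1.69, as did using no filter on low values (limma adjusted p = 0.113). The summed FPKM of the mitochondrial mRNAs was 17985 and 18997 in WT, 19265 in Calu-KO replicate 1 and 33943 in Calu-KO replicate 2. A link between Ppargc1a and this sum was not tested.

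The translation machinery for these mRNAs gave no calls. Of 77 tested mitochondrial ribosomal protein genes 0 passed (limma) and 16 had a positive log2 change, with a median of -0.19. Over all 11885 tested genes 6025 were positive, the median was 0.01, and 0.942% were called higher and 1.83% lower. The median ratio of the ribosomal protein genes to the WT mean was 0.941 in Calu-KO replicate 1 and 0.779 in Calu-KO replicate 2. Over all tested genes these medians were 1.005 and 1.006. None of 9 translation factors passed, with 0 positive log2 changes and a median of -0.24. None of 17 mitochondrial aminoacyl-tRNA synthetases passed, with a median of 0.12.

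Nuclear partners of the mitochondrially encoded subunits stood lower in the library where the mitochondrial mRNAs stood higher. Of 77 tested nuclear subunits of complexes I, III, IV and V, 1 fell and 0 rose (limma), beside 1.83% and 0.942% of all tested genes, and the median log2 change was -0.37. The 1 was Cox6a2, a muscle-type subunit of complex IV, at 44 and 54 reads in WT, against 14 and 9 in Calu-KO (log2 change -1.38 ± 0.17 SE, limma adjusted p = 0.0332). Its call was lost without WT replicate 1 or 2 and with no filter on low values (limma adjusted p = 0.0950, 0.159 and 0.137). The median ratio of the 77 to the WT mean was 0.933 in Calu-KO replicate 1 and 0.648 in Calu-KO replicate 2, beside 1.005 and 1.006 over all tested genes. The 4 genes of complex II, which has no mitochondrially encoded subunit, had medians of 1.05 and 0.972.

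For complex I the summed FPKM of the mitochondrial genes was 6.94 and 7.15 times that of the nuclear genes in WT, 6.99 times in Calu-KO replicate 1 and 19.5 times in Calu-KO replicate 2. For complex III the ratio was 3.86 and 4.10 in WT, 4.84 in Calu-KO replicate 1 and 8.09 in Calu-KO replicate 2. For complex IV it was 4.73 and 4.75 in WT, 5.77 in Calu-KO replicate 1 and 15.4 in Calu-KO replicate 2. In all 3 complexes Calu-KO replicate 2 stood above the other libraries. Complex V, whose mitochondrial mRNAs lie within the mirrored stretch, gave 0.0586 and 0.0512 in WT and 0.0594 and 0.0798 in Calu-KO.

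**Figure D5:**
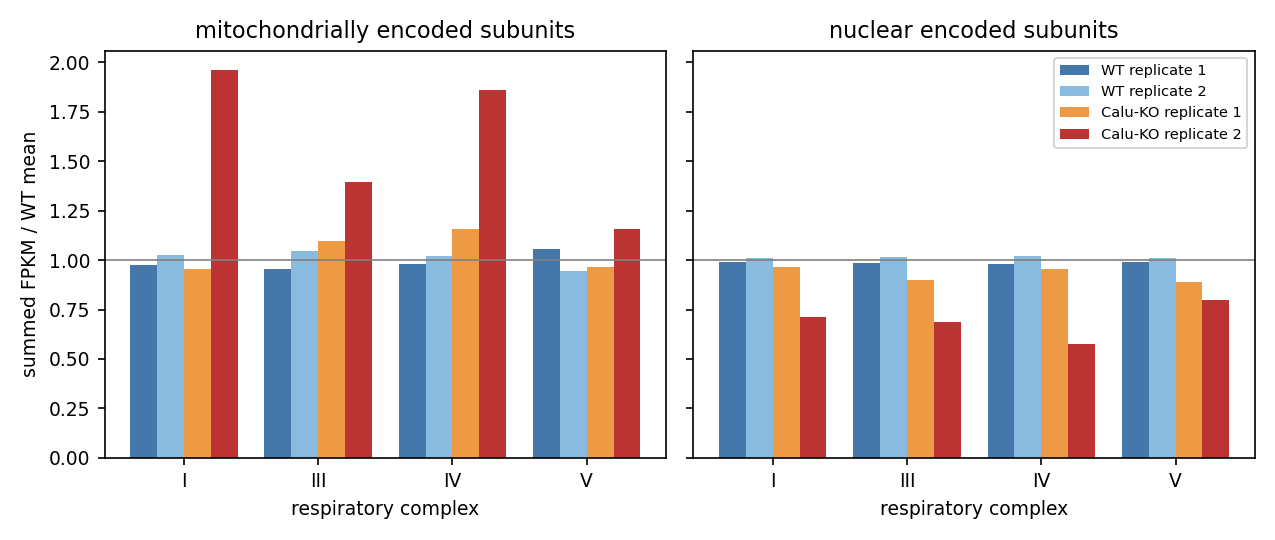
Summed FPKM of the mitochondrially encoded (left) and nuclear-encoded (right) subunits of 4 respiratory complexes, divided by the WT mean, with 1 bar per library. In Calu-KO replicate 2 the mitochondrial sums stood at 1.96, 1.39, 1.86 and 1.16 times WT for complexes I, III, IV and V and the nuclear sums at 0.710, 0.686, 0.574 and 0.796 times.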

How the data were processed

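Per the labels' protocols, total RNA was extracted with TRIzol and sequenced as paired ends on an Illumina NovaSeq instrument. Reads were aligned with HISAT2 2.0.5 to mm10, per the submitters' processing notes. The sources state no RNA selection, read counter, annotation or strand setting. The authors deposited FPKM for each library and gene. FPKM times gene length gave whole multiples of 1 step for 100% of values within 0.001 reads, and these were taken as reads. The columns are already scaled between libraries. The sizes this scaling implied were 1.64e+07, 1.66e+07 and 1.69e+07 reads for WT replicates 1 and 2 and Calu-KO replicate 1, above the reads recovered. For Calu-KO replicate 2 the implied size was 1.46e+07, below its 16038560 recovered reads. FPKM therefore places Calu-KO replicate 2 higher against the others than its share of reads does. For the mRNAs its ratio to Calu-KO replicate 1 was 1.76 in FPKM and 1.57 in percent of reads. Calu-KO was compared with WT over the 11885 genes averaging 1 FPKM or more by limma 3.58.1 (R 4.3.3, intensity trend, two-sided, Benjamini-Hochberg over all genes tested, threshold 0.05) on log2(FPKM + 1), a scale that understates changes of low genes. These steps were run on simulated data with equal spread in all libraries. Here the Calu-KO libraries differed more from each other than the WT libraries, so that run does not vouch for the calls. Ratios between single libraries carry exact 95% intervals that cover counting error only. All 37 coordinates equalled GENCODE M21, whose transcripts gave the printed sequences and, with BLAST 2.17.0 (at least 95% identity over 100 bases), the nuclear copies. Members and lists were chosen with earlier results of these data known. Nuclear genes were named if called, up to 4 per list with the lowest adjusted p, beside Calu, Tfam, Polrmt, Lrpprc, Ppargc1a and 5 copies from a list; Gm10222 and Gm28439 were added after their values were seen.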

Additional observations from a re-analysis of the deposited data

How the results depend on the processing

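With 2 libraries a group, depth limits the rarer tRNAs, of which 11 of 22 held fewer than 20 reads over the 4 libraries. Members called higher numbered 1 in the comparison as reported, 0 with no filter on low values, 0 with at least 20 reads over the 4 libraries, and 0 to 17 when each library was left out in turn; members called lower numbered 0, and 0 to 5 on leaving out. Over all genes 112 were called higher and 217 lower, against 0 and 0 of 24462 with no filter, 113 and 299 with at least 20 reads, 45 and 152 on rescaling to total reads, 60 and 167 on rescaling to reads outside the mitochondrial genome, 89 and 190 without the intensity trend, and 8 to 2926 and 34 to 2805 on leaving out a library. With a replicate block 181 and 312 genes were called and mt-Ti stayed the 1 member called higher; same-numbered libraries share only a number (correlation of their deviations 0.0153). Calls in the nuclear lists moved with the replicate block to 2 mitochondrial ribosomal proteins, 1 aminoacyl-tRNA synthetase and 2 nuclear subunits, with no filter to 0 biogenesis regulators and 0 nuclear subunits, and with at least 20 reads to 2 nuclear subunits. On leaving out a library they numbered 0 to 4 for DNA maintenance and transcription, 0 to 13 for RNA processing, 0 to 3 for biogenesis regulators, 0 to 45 for ribosomal proteins, 0 to 4 for translation factors, 0 to 3 for aminoacyl-tRNA synthetases and 0 to 58 for nuclear subunits. The cause was not tested.

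Log2 changes that turned sign on leaving out a library ranged from -0.047 to 0.78 for mt-Nd1, -0.11 to 1.13 for mt-Nd6, -0.11 to 1.30 for mt-Nd5, -0.0050 to 0.88 for mt-Nd2, -0.054 to 0.90 for mt-Nd4, -0.029 to 0.24 for mt-Atp6 and -0.070 to 0.51 for mt-Nd4l. They ranged from -0.61 to 0.45 for mt-Rnr1, -0.58 to 0.82 for mt-Rnr2, -0.59 to 0.47 for mt-Tp, -0.66 to 1.02 for mt-Tc, -0.62 to 0.23 for mt-Tn, -0.93 to 0.14 for mt-Te and -0.60 to 0.63 for mt-Tl1. They ranged from -0.47 to 0.98 for mt-Ty, -0.16 to 2.23 for mt-Th, -2.58 to 1.22 for mt-Ta, -0.46 to 1.88 for mt-Tt, -0.34 to 0.13 for Lrpprc and -0.13 to 0.012 for Tfam. The change of mt-Tl1 turned to -0.091 on rescaling to total reads and -0.080 on rescaling to reads outside the mitochondrial genome. With the reads of the chromosome 1 copy added, an alternative chosen after seeing the data, mt-Nd3 turned to 0.75.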
